A study of Mus musculus with 8 samples.

Results

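The growth and neurotrophic factor ligands examined here are 10 secreted or membrane-anchored signalling proteins whose mouse genes were taken by symbol from the raw count matrix: *Pdgfa*, *Pdgfb*, *Pdgfc*, *Vegfa*, *Vegfb*, *Hbegf*, *Tgfa*, *Bdnf*, *Hgf* and *Osm*. Each symbol matched 1 row by its Ensembl identifier, so 10 of the 55573 listed genes were described. In mutants targeting *Smad2/3* with *Cx3cr1* Cre, *Pdgfc*, *Hgf* and *Hbegf* rose in microglia, and *Tgfa* and *Pdgfb* fell, whereas *Vegfa*, *Vegfb*, *Pdgfa* and *Osm* did not pass the test. *Bdnf* was too low to be tested.

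Ligands of these families act on receptors of neighbouring cells. PDGF ligands are dimers that signal through PDGFRα, carried in the brain by oligodendrocyte precursors, and PDGFRβ, carried by pericytes. VEGF ligands act on VEGF receptors of vessels, HB-EGF and TGFα on the EGF receptor, BDNF on TrkB, HGF on MET, and OSM on receptor complexes that contain gp130. Microglia are the resident macrophages of the brain, and their mature state is known to depend on TGFβ, whose canonical signal is carried to the nucleus by SMAD2 and SMAD3.

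Microglia were sorted from the brains of 4 mutant and 4 control mice at P60 (postnatal day 60), and each mouse gave 1 RNA-seq library. Mutants were *Smad2/3 fl/fl;Cx3cr1 Cre* mice, in which Cre expressed from the *Cx3cr1* locus deletes both floxed genes in microglia and in related macrophages. The labels call the controls WT littermates, whereas the Methods state that controls generally carried Cre with a floxed allele, and all mice were on a C57BL6/J background. The Methods describe isolation over a Percoll gradient and gating of live single tdTomato+ cells on CD45 and CD11b.

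Between 35639502 and 41946479 reads per library were counted on genes. *Smad3* fell from 48.6 ± 7.12 to 19.3 ± 11.01 CPM (CPM being the read count relative to the TMM-scaled library size, given as mean ± SD, n = 4 each, adjusted p = 0.0429 in edgeR's quasi-likelihood test), and of 8 fits that each left out a mouse only the one without mutant replicate 3 kept that call (adjusted p up to 0.1098). *Smad2* was 74.5 ± 13.8 CPM in controls and 58.7 ± 14.9 CPM in mutants (adjusted p = 0.340 in edgeR's test), and both genes were counted over all their exons, floxed or not. In mutant replicate 3, *Smad3* was 35.1 CPM and *Smad2* 75.8 CPM, the highest of the mutants for both. Of 8 microglial markers, 6 fell, with *Cx3cr1* at 5450 to 8618 CPM in controls and 1277 to 1347 CPM in mutants. Of 5 border macrophage markers, 4 rose, and their sum was 26.4 to 36.6 CPM in controls and 1563 to 2430 CPM in mutants, with none at 0 in any library. Of 4 T and NK cell markers, 3 rose, with sums of 11.9 to 34.8 CPM in controls and 45.3 to 115 CPM in mutants and none at 0. Of 5 neutrophil markers 0 were called by edgeR or DESeq2, with sums of 385 to 1573 CPM in controls and 206 to 685 CPM in mutants. Of 4 monocyte markers, 0 were called by edgeR and 1 was lower with DESeq2. They summed to 180 to 410 CPM in controls and 118 to 263 CPM in mutants. The part of such cells in the ligand levels and differences was not tested. *Xist* was at 99.3 CPM or more in every control and at 0.561 CPM or less in every mutant, and *Ddx3y* at 0.224 CPM or less in controls and 9.73 CPM or more in mutants, so genotype and sex cannot be told apart. In sorted bulk RNA, fewer cells of a type and less RNA per cell cannot be told apart.

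Of the 10 ligand genes, 9 reached 10 counts in 4 or more of the 8 libraries and were tested. At an adjusted p under 0.05 in edgeR's test, 5 of these 9 were called, 3 higher and 2 lower in mutants. Over all 20153 genes tested, 12.3% were called, 4.36% higher and 7.97% lower. The groups did not overlap in CPM for 6 of the 9 ligands, with 4 higher and 2 lower in mutants, against 22.1% of all tested genes, 9.04% higher and 13% lower. The median log2 fold change of mutants over controls was 0.28 for the 9 ligands and 0.011 for all tested genes.

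**Figure D1:**
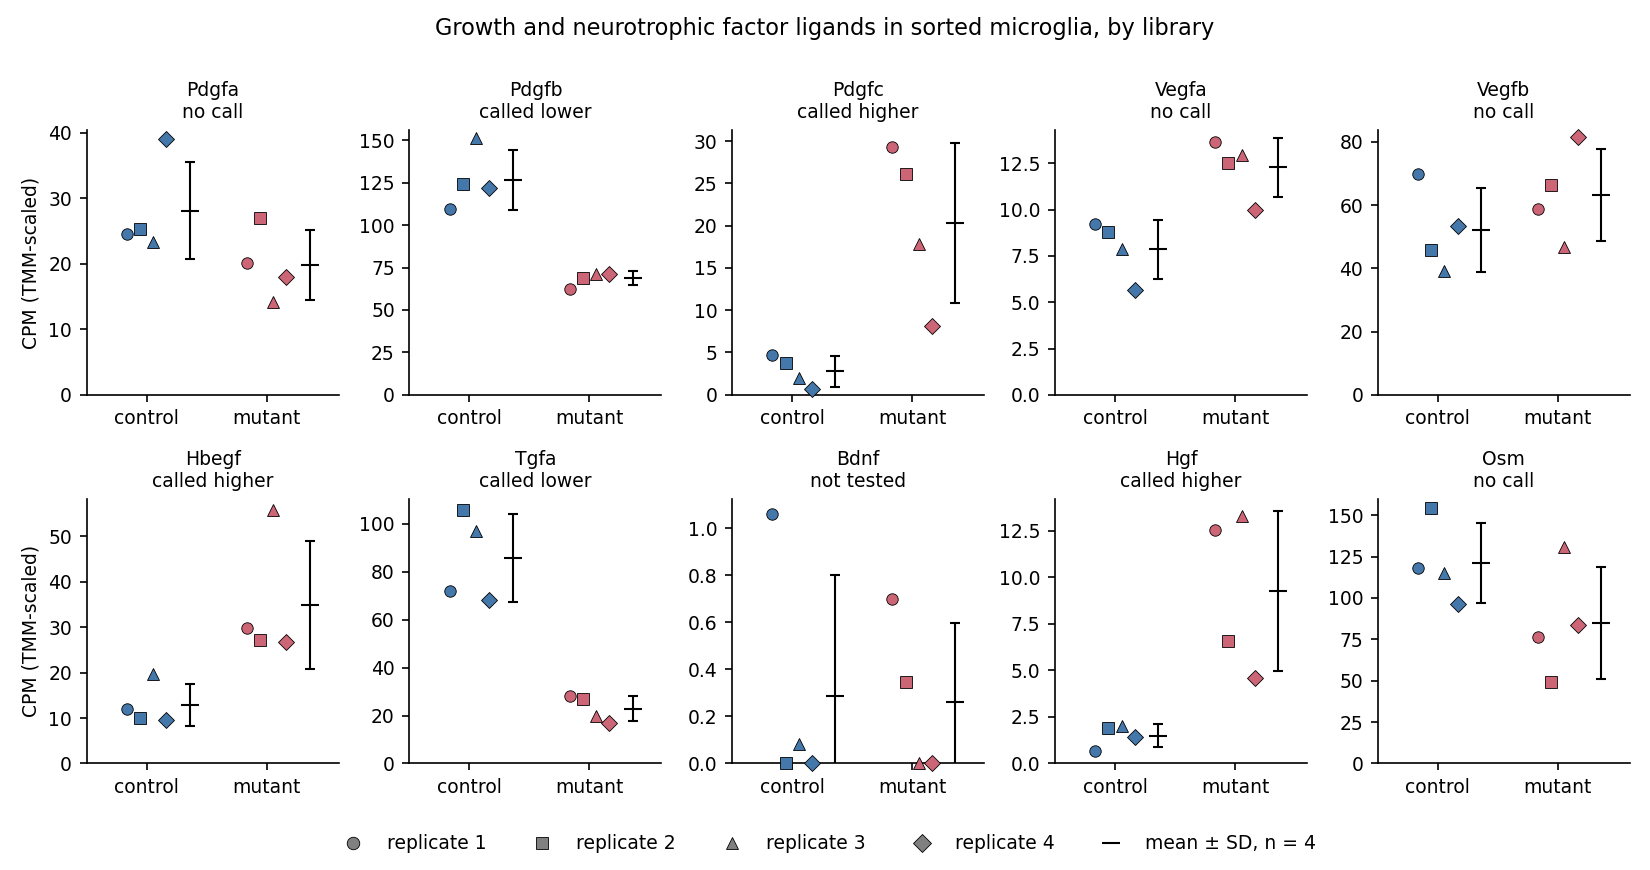
CPM of each of the 10 ligand genes in the 4 control and 4 mutant libraries, with 1 symbol for each replicate number and a bar for the mean ± SD (n = 4), cut at 0 where it would fall below. Pdgfc, Vegfa, Hbegf and Hgf had their 4 mutant values above their 4 control values, and Pdgfb and Tgfa had them below.

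**Figure D2:**
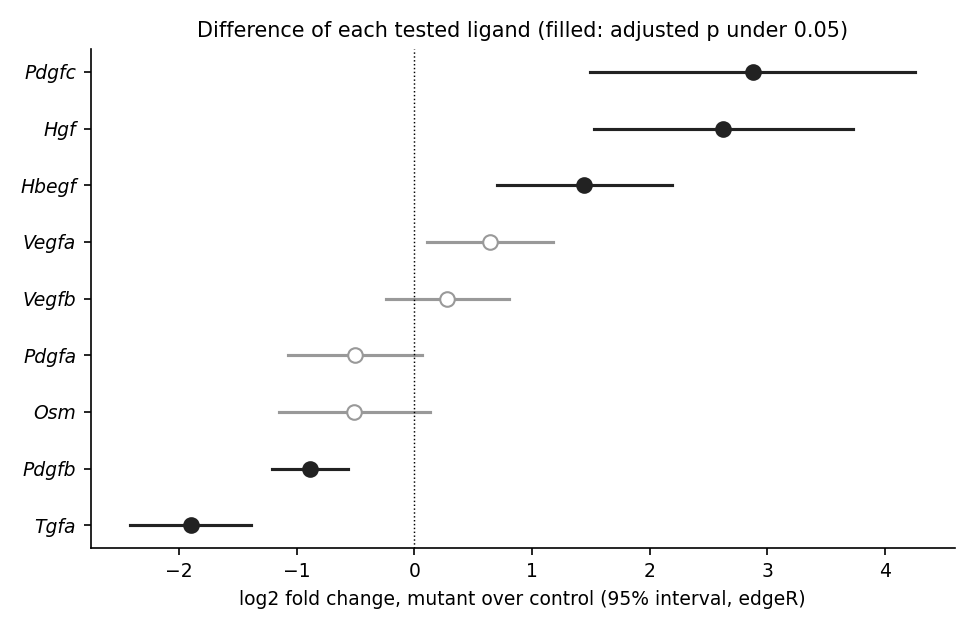
Log2 fold change of mutants over controls for the 9 tested ligands, as points with 95% intervals from edgeR's fit. Filled points mark an adjusted p under 0.05 and run from 2.88 for Pdgfc to -1.90 for Tgfa.

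Promoter sequence was examined for the SMAD binding word CAGAC, because SMAD2 and SMAD3 are the targeted proteins. RefSeq windows on GRCm38.p6, each of 300 bases from 250 before to 50 after a transcript start, were found for 7 of the 10 ligands, and 6 of these ligands have a window within 10 bases of the annotated gene start. CAGAC, or its reverse complement GTCTG, stands in that window for 4 of the 6, namely *Pdgfc*, *Vegfa*, *Tgfa* and *Hgf*, and not for *Vegfb* and *Bdnf*, while 49.6% of all 32851 windows of this length hold it on either strand. The palindromic element GTCTAGAC (0.213% of all windows) and the AP-1 word TGANTCA (7.81%) are in none of the 6. ACGTG, the hypoxia response core (19.6%), is in 1, that of *Bdnf*, and GAGGAA, the PU.1 core (28.3%), is in 3, those of *Pdgfc*, *Vegfa* and *Hgf*. The upstream 250 bases are shown for the 3 called ligands with such a window, 2 that rose and 1 that fell, 5′ to 3′ on the plus strand, with CAGAC or GTCTG in capitals. *Pdgfc* is read from chr3:81036166-81036415, *Tgfa* from chr6:86194972-86195221 and *Hgf* from chr5:16553245-16553494.
*Pdgfc*: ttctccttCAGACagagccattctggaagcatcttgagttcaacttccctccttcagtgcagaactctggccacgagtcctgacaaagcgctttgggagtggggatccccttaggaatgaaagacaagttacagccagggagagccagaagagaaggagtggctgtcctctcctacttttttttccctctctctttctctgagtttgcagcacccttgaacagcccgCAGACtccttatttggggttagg
*Tgfa*: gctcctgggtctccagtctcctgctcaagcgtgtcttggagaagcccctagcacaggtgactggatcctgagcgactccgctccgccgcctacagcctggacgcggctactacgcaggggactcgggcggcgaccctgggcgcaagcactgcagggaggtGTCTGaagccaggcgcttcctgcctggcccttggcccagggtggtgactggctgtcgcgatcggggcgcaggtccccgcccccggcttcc
*Hgf*: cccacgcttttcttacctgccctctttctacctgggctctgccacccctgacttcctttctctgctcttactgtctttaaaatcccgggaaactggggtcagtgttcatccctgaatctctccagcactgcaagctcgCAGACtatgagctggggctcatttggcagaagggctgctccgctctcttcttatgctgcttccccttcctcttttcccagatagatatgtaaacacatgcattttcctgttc
The word begins 242 and 23 bases before the start of *Pdgfc*, 90 bases before that of *Tgfa* and 112 bases before that of *Hgf*. These matches are letters in a window, and no binding was measured.

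The PDGF ligands moved in different directions. *Pdgfb* (ENSMUSG00000000489, chromosome 15 from 79995874 to 80014977 on GRCm38, minus strand) encodes the PDGF-B chain, which draws pericytes to vessels through PDGFRβ. It stood at 109.8, 124, 151 and 122 CPM in control replicates 1 to 4 and at 62.6, 69.0, 71.2 and 71.5 CPM in mutant replicates 1 to 4. All mutants were below all controls, and the mutants lay close together. The log2 fold change was -0.89 (SE, the standard error, 0.14, 95% interval -1.21 to -0.56, adjusted p = 0.00432 in edgeR's test), a level 1.85-fold lower in mutants. The call was made in all 17 alternative fits.

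*Pdgfc* (ENSMUSG00000028019, chromosome 3 from 81036416 to 81214040, plus strand) encodes PDGF-C, which is secreted in a latent form and binds PDGFRα once a protease has cut it. Its control values were 4.70, 3.72, 1.93 and 0.698 CPM and its mutant values 29.3, 26.1, 17.8 and 8.11 CPM, in replicate order. The lowest mutant was above the highest control, although both groups were widely spread. The log2 fold change was 2.88 (SE 0.61, 95% interval 1.5 to 4.26, adjusted p = 0.0160 in edgeR's test), 7.35-fold higher in mutants. Without control replicate 3 the log2 fold change was 2.74 and the adjusted p 0.0552, and without the third replicate of both groups they were 2.85 and 0.0842. The other 15 of 17 alternatives kept the call.

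*Pdgfc* values were set beside RNA of other brain cells, since sorted suspensions can carry debris. Of 15 neuron, astrocyte and oligodendrocyte markers, 0 were called by edgeR or DESeq2 and 1 had an unadjusted p under 0.05 in edgeR's test. They summed to 5403, 1938, 1117 and 759 CPM in control replicates 1 to 4 and to 4488, 2487, 1343 and 1583 CPM in mutant replicates 1 to 4. In controls, *Pdgfc* and this sum had the same order of libraries, and in mutants the order differed for replicates 3 and 4. Control replicate 1 had the highest sum of all 8 libraries, with *Pdgfc* at 4.70 CPM, below every mutant. Without replicate 1 of both groups, the libraries with most of this RNA, *Pdgfc* was still called (log2 fold change 3.05, adjusted p = 0.0384 in edgeR's test). The part of neural RNA in the spread of *Pdgfc* within groups was not tested.

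**Figure D3:**
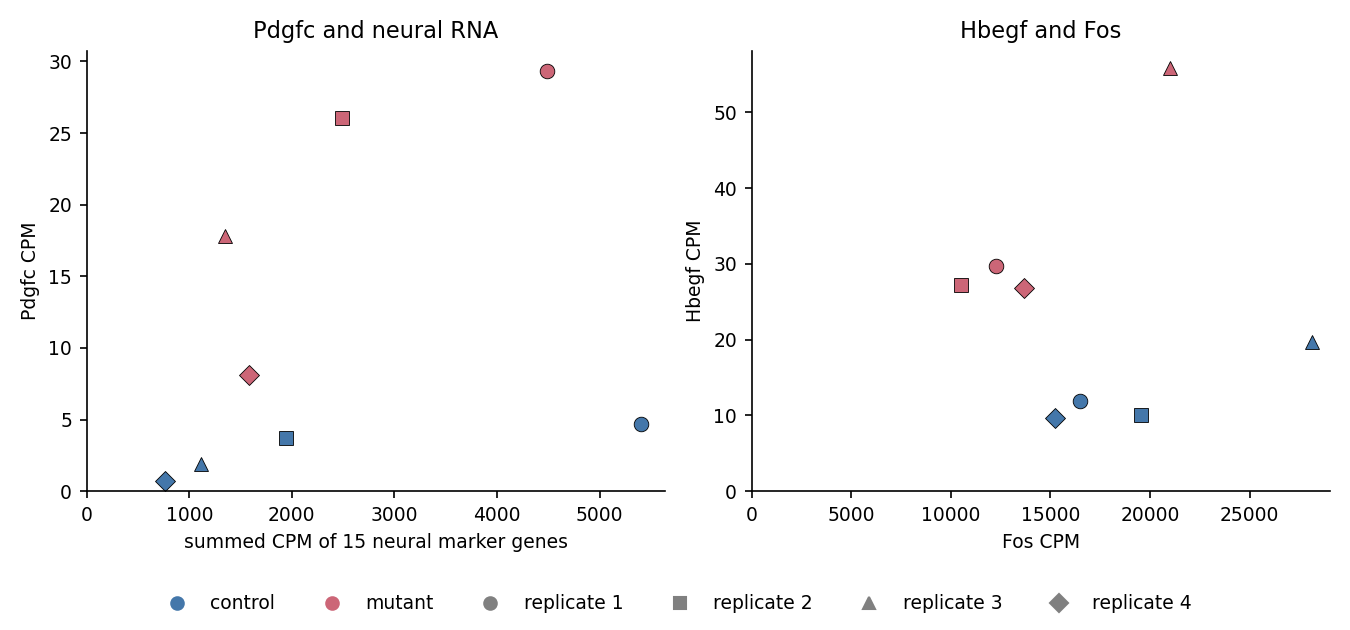
Left, Pdgfc CPM against the summed CPM of 15 neuron, astrocyte and oligodendrocyte markers. Right, Hbegf CPM against Fos CPM, each point being 1 of the 8 libraries coloured by group and shaped by replicate number. Mutant points lie above control points in both panels, and the library with the highest Fos of each group, replicate 3, has the highest Hbegf of its group.

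*Pdgfa* (ENSMUSG00000025856, chromosome 5 from 138976014 to 138997370, minus strand) encodes the PDGF-A chain, a mitogen of oligodendrocyte precursors. It was 24.5, 25.4, 23.4 and 39.1 CPM in controls and 20.1, 27.0, 14.2 and 17.9 CPM in mutants. The groups overlapped, with mutant replicate 2 above 3 of the controls. The difference, -0.50 in log2 fold change (SE 0.25, 95% interval -1.08 to 0.07), gave no call (adjusted p = 0.228 in edgeR's test). Of the exon bases of *Pdgfa*, 26.1% overlap the antisense gene *6330403L08Rik*, and the libraries carry no strand, so reads of the pair cannot be told apart there.

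On a scale per kilobase of exon (RPKM, CPM divided by the length of the merged exons), these 3 PDGF genes together stood at 35.2 to 44.3 RPKM in controls and 24.5 to 30.4 RPKM in mutants. *Pdgfd*, a PDGF gene outside the 10 ligands, was not in the sum. It was 3.19 to 6.64 CPM in controls and 4.41 to 10.5 CPM in mutants (adjusted p = 0.290 in edgeR's test). *Pdgfb* held 69.8% to 82.2% of the sum of the 3 in controls and 54.6% to 70.1% in mutants. The share of *Pdgfc* was 0.327% to 2.63% in controls and 6.498% to 21.1% in mutants, without overlap, and *Pdgfa* took 16.9% to 29.9% and 18.1% to 28.5%. *Pdgfb* therefore remained the most abundant of these 3 PDGF transcripts in all 8 libraries.

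**Figure D4:**
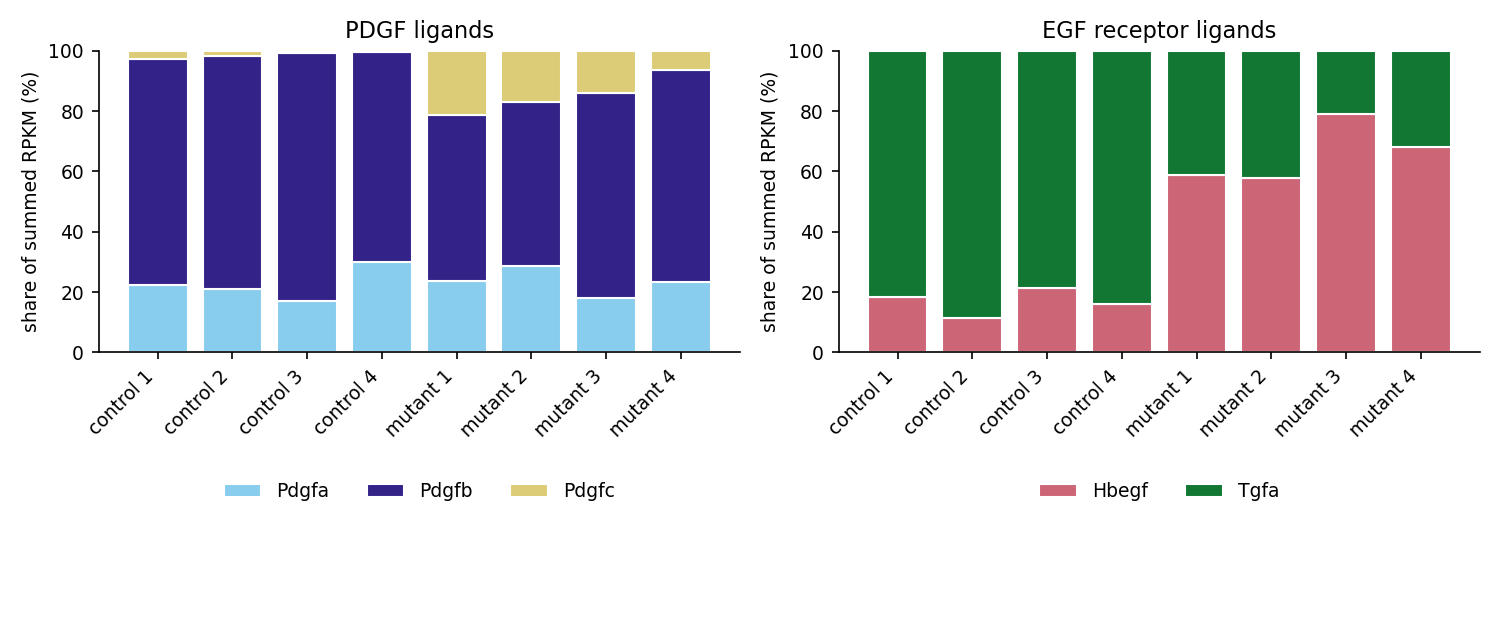
Share of each gene in the summed RPKM of the genes shown in its panel, in the 8 libraries, as stacked bars that add to 100%. Left, Pdgfa, Pdgfb and Pdgfc, and right, Hbegf with Tgfa. Pdgfc reaches 21.1% in mutants, and Hbegf passes Tgfa in every mutant and in no control.

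The EGF receptor ligands also changed in opposite directions. *Tgfa* (ENSMUSG00000029999, chromosome 6 from 86195223 to 86275719, plus strand) encodes TGFα, an EGF receptor ligand released from the membrane by ADAM17 and known as a microglial signal to astrocytes. It was 71.8, 106, 96.9 and 68.3 CPM in control replicates 1 to 4 and 28.0, 26.8, 20.0 and 17.0 CPM in mutant replicates 1 to 4. Every mutant was far below every control. The log2 fold change was -1.90 (SE 0.23, 95% interval -2.42 to -1.39, adjusted p = 9.67e-04 in edgeR's test), 3.74-fold lower in mutants. The call was made in all 17 alternative fits.

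*Hbegf* (ENSMUSG00000024486, chromosome 18 from 36504927 to 36515805, minus strand) encodes heparin-binding EGF-like growth factor, which binds the EGF receptor and ErbB4. Control values were 11.96, 10.01, 19.7 and 9.67 CPM and mutant values 29.7, 27.2, 55.8 and 26.8 CPM. Replicate 3 was the highest of each group, and the groups did not overlap. The log2 fold change was 1.44 (SE 0.33, 95% interval 0.70 to 2.19, adjusted p = 0.0218 in edgeR's test), 2.72-fold higher in mutants. The call was lost without control replicate 1 (log2 fold change 1.41, adjusted p = 0.0524), without control replicate 2 (1.34, adjusted p = 0.0699), and without replicate 1 of both groups (1.48, adjusted p = 0.0702), and was made in the other 14 of 17 alternatives.

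*Hbegf* is known to respond early when cells are stressed or stimulated, so immediate early genes of the same libraries were examined. *Fos* was 16462, 19563, 28136 and 15221 CPM in controls and 12283, 10489, 21022 and 13694 CPM in mutants (adjusted p = 0.311 in edgeR's test), and replicate 3, the highest in each group, was also the highest in *Hbegf*. The list of 14 genes also held the heat shock genes *Hspa1a* and *Hspa1b*, at log2 fold changes of 0.67 and 0.26 without a call. Of the 14, 1 rose, *Ier3*, and 1 fell, *Egr1*, in edgeR's test, against 4.36% and 7.97% of all tested genes. At an unadjusted p under 0.05, and likewise with DESeq2, 1 was higher and 4 were lower, and the median log2 fold change of the 14 was -0.40. Their summed level was 41259 to 93730 CPM in controls and 33192 to 65771 CPM in mutants. Without replicate 3 of both groups *Hbegf* was still called (log2 fold change 1.46, adjusted p = 0.00837 in edgeR's test). The part of the early response in the level of *Hbegf* was not tested.

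Within each library, *Hbegf* held 11.3% to 21.4% of the summed RPKM of *Hbegf* and *Tgfa* in controls and 57.7% to 78.9% in mutants. Their sum was 12.5 to 19 RPKM in controls and 8.16 to 14.6 RPKM in mutants, with overlap. The more abundant of this pair of transcripts was thus *Tgfa* in the 4 controls and *Hbegf* in the 4 mutants.

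*Hgf* (ENSMUSG00000028864, chromosome 5 from 16553495 to 16620152, plus strand) encodes hepatocyte growth factor, the ligand of MET, which is secreted as an inactive chain and activated by proteases such as matriptase. It was 0.671, 1.90, 2.01 and 1.40 CPM in control replicates 1 to 4, from 26 to 73 counts, and 12.5, 6.60, 13.3 and 4.60 CPM in mutant replicates 1 to 4, from 167 to 483 counts. The groups did not overlap, and the lowest mutant was above the highest control. The log2 fold change was 2.63 (SE 0.49, 95% interval 1.52 to 3.73, adjusted p = 0.00876 in edgeR's test), 6.18-fold higher in mutants, and the call was made in all 17 alternatives. Of its exon bases, 6.73% overlap the unverified gene *Gm43489* on the same strand.

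The VEGF ligands among the 10, *Vegfa* and *Vegfb*, gave no call in edgeR's test. *Vegfa* (ENSMUSG00000023951, chromosome 17 from 46016993 to 46032369, minus strand), the main growth factor of vessels, was 9.22, 8.79, 7.85 and 5.64 CPM in controls and 13.6, 12.5, 13.0 and 10.01 CPM in mutants. All 4 mutants were above all 4 controls, but the log2 fold change of 0.64 (SE 0.24, 95% interval 0.11 to 1.17) did not pass the correction (adjusted p = 0.111 in edgeR's test), and DESeq2 gave 0.0266. Hypoxia response genes often move with *Vegfa*. Of 10 hypoxia-related genes, *Hif1a* itself included, 0 rose and 2 fell in edgeR's test, against 4.36% and 7.97% of all tested genes. The 2 were the glucose transporter gene *Slc2a1* and *Hif1a*, and neither an unadjusted p under 0.05 nor DESeq2 gave a rise (0 genes). Of the 10, 7 had a positive log2 fold change, and *Car9*, at 0 to 1.76 CPM in controls and 3.28 to 7.83 CPM in mutants, was higher without overlap but not past the correction (adjusted p = 0.189 in edgeR's test). The summed level of the 10 was 556 to 624 CPM in controls and 526 to 688 CPM in mutants. *Ldha* was the largest part of it, with a mean of 285 CPM in controls and 310 CPM in mutants.

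*Vegfb* (ENSMUSG00000024962, chromosome 19 from 6982473 to 6987651, minus strand) encodes VEGF-B, a ligand of VEGFR1 that has been described as a microglial signal to astrocytes. It was 70.0, 45.9, 39.2 and 53.3 CPM in controls and 58.6, 66.4, 46.8 and 81.5 CPM in mutants. The groups overlapped broadly, with a log2 fold change of 0.28 (SE 0.23, 95% interval -0.24 to 0.80, adjusted p = 0.470 in edgeR's test). Per kilobase, *Vegfb* made up 93.0% to 96.2% of the sum of *Vegfa* and *Vegfb* in controls and 90.6% to 95.6% in mutants.

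*Osm* (ENSMUSG00000058755, chromosome 11 from 4236420 to 4241026, plus strand) encodes oncostatin M, an IL-6 family cytokine of myeloid cells. It was 118, 154, 115 and 96.4 CPM in controls and 76.3, 49.3, 131 and 83.5 CPM in mutants. Mutant replicate 3 stood above 3 of the controls, whereas the other mutants were below them all. At -0.51 in log2 fold change (SE 0.28, 95% interval -1.15 to 0.13), the difference gave no call (adjusted p = 0.277 in edgeR's test). The 5 neutrophil markers summed to 863, 1573, 503 and 385 CPM in controls and 206, 570, 623 and 685 CPM in mutants. *Osm* and this sum had the same order of libraries in controls but not in mutants. The part of neutrophils in *Osm* was not tested.

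*Bdnf* (ENSMUSG00000048482, chromosome 2 from 109674700 to 109727007, plus strand), the neurotrophin that acts on TrkB, had 41, 0, 3 and 0 counts in controls and 27, 16, 0 and 0 counts in mutants. In CPM these were 1.06, 0, 0.0838 and 0 in controls and 0.700, 0.345, 0 and 0 in mutants. A library with 0 counts allows up to 0.0835 CPM (3 counts, the widest of the 4 such libraries), for counting error only. Replicate 1, with the most counts in both groups, was also the library with most neural marker RNA in both. Reads were too few for a comparison, and 14.4% of the exon bases overlap the antisense gene *Gm45346*.

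Per kilobase of exon, the ligands in the sorted control cells ranked *Osm* (53.2 ± 10.7 RPKM, SD, n = 4), *Vegfb* (32.5 ± 8.26), *Pdgfb* (30.5 ± 4.23), *Tgfa* (13.2 ± 2.85), *Pdgfa* (9.01 ± 2.37), *Hbegf* (2.65 ± 0.967), *Vegfa* (1.84 ± 0.372), *Pdgfc* (0.543 ± 0.352), *Hgf* (0.208 ± 0.0850) and *Bdnf* (0.0459 ± 0.0831). Among neighbours in that order, *Pdgfb* and *Tgfa*, *Pdgfa* and *Hbegf*, and *Vegfa* and *Pdgfc* did not overlap, and the other 6 pairs did. In mutants the order was *Vegfb* (39.5 ± 9.06 RPKM), *Osm* (37.4 ± 14.9), *Pdgfb* (16.5 ± 0.995), *Hbegf* (7.22 ± 2.90), *Pdgfa* (6.35 ± 1.73), *Pdgfc* (3.99 ± 1.86), *Tgfa* (3.53 ± 0.815), *Vegfa* (2.87 ± 0.370), *Hgf* (1.29 ± 0.599) and *Bdnf* (0.0420 ± 0.0539). There the pairs *Osm* and *Pdgfb*, *Pdgfb* and *Hbegf*, *Vegfa* and *Hgf*, and *Hgf* and *Bdnf* did not overlap, while the other 5 pairs did. *Tgfa* thus moved from the fourth place in controls to the seventh in mutants, and *Hgf* held the ninth in both.

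Of 21 receptor genes of these families, 16 were tested. In edgeR's test 0 rose and 3 fell, against 4.36% and 7.97% of all tested genes. At an unadjusted p under 0.05, and likewise with DESeq2, 1 was higher and 3 were lower. The median log2 fold change of the 16 was 0.46, against 0.011 for all tested genes. The higher gene was *Nrp1*, at 9.61 to 94.3 CPM in controls and 107 to 216 CPM in mutants, without overlap. Its log2 fold change was 1.51 (SE 0.59, adjusted p = 0.131 in edgeR's test and 0.0409 with DESeq2). *Pdgfrb*, the receptor of PDGF-B, was 1.47, 16.4, 12.9 and 12.9 CPM in controls and 0.0778, 1.19, 0.111 and 0.0276 CPM in mutants. Control replicate 1 lay near the highest mutant, and the log2 fold change of -4.91 (SE 1.18, adjusted p = 0.0275 in edgeR's test) lost its call in 6 of the 8 fits that left out a mouse, with adjusted p up to 0.0700. Mural cell markers, the usual carriers of *Pdgfrb*, summed to 3.97 to 13.4 CPM in controls and 10.01 to 15.2 CPM in mutants, and of the 3 tested of 5, 0 were called or had an unadjusted p under 0.05 in edgeR's test. DESeq2, run on all listed genes, called *Kcnj8* higher, which had 0, 0, 1 and 0 counts in controls and 52, 45, 1 and 0 counts in mutants and was too low for edgeR's test. Of the 3 tested, 2 had a positive log2 fold change and 1 a negative one, *Rgs5*. *Rgs5* was 0.0279 to 1.17 CPM in controls and 0 to 0.432 CPM in mutants (-2.67, SE 1.48, adjusted p = 0.273 in edgeR's test). *Vtn* made up most of the sum, with a mean of 8.78 CPM in controls and 8.92 CPM in mutants. The part of mural cells in *Pdgfrb* was not tested.

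*Pdgfra*, the receptor of PDGF-A and PDGF-C, was 14.2, 15.6, 3.83 and 7.98 CPM in controls and 25.4, 19.6, 9.88 and 5.71 CPM in mutants, with overlap (log2 fold change 0.54, SE 0.55, adjusted p = 0.570 in edgeR's test). *Met*, the receptor of HGF, was at most 1.17 CPM in controls and 2.75 CPM in mutants (0.78, SE 1.38, adjusted p = 0.765). The EGF receptor gene *Egfr* reached 2.42 CPM in controls and 1.95 CPM in mutants (-1.41, SE 1.31, adjusted p = 0.531), and *Erbb4* 2.40 and 2.78 CPM (-0.10, SE 1.57, adjusted p = 0.978). Those intervals are wide, and for *Met* and *Erbb4* the sign turned in some alternatives, so no difference could be resolved at these levels.

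Among receptors of the other ligands, *Sort1*, which encodes the neurotrophin sorting receptor sortilin, fell from 90.3, 107, 112 and 127 CPM to 20.9, 20.7, 21.1 and 21.3 CPM. The 4 mutants were nearly identical, at a log2 fold change of -2.38 (SE 0.15, adjusted p = 4.82e-05 in edgeR's test). *Il6st*, which encodes gp130, the subunit shared by receptors of the IL-6 family, fell from 62.0, 83.1, 111 and 104 CPM to 13.0, 18.4, 21.6 and 9.02 CPM (-2.54, SE 0.31, adjusted p = 0.00100 in edgeR's test). Both calls were made in all 17 alternatives. *Osmr*, the partner of gp130 for OSM, reached 0.648 CPM at most and was not tested, and *Lifr*, the other partner, was 18.3 to 44.5 CPM over the 8 libraries with no call (adjusted p = 0.891 in edgeR's test).

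Of 19 other ligands of the same families, 9 were tested. In edgeR's test 0 rose and 1 fell, against 4.36% and 7.97% of all tested genes. At an unadjusted p under 0.05, 3 were higher and 1 lower, and with DESeq2 1 was higher and 1 lower. The median log2 fold change of the 9 was 0.82. The gene higher with DESeq2 was *Pgf*, of the VEGF family, at 0.537 to 1.34 CPM in controls and 1.25 to 5.45 CPM in mutants. Its log2 fold change was 1.96 (SE 0.57, adjusted p = 0.0537 in edgeR's test and 0.00445 with DESeq2). *Clcf1*, which encodes cardiotrophin-like cytokine factor 1, a gp130 ligand like OSM, was 17.4, 29.2, 35.9 and 27.3 CPM in controls and 0.0778, 0.755, 0.640 and 1.13 CPM in mutants. The groups were far apart, with a log2 fold change of -5.39 (SE 0.64, adjusted p = 9.04e-04 in edgeR's test). The call was made in all 16 alternatives in which *Clcf1* was tested, and 8.17% of its exon bases overlap the gene *AC109138.7* on the same strand. Of the other IL-6 family ligands, *Il6* and *Ctf1* gave no call in edgeR's test, and *Lif*, *Il11* and *Cntf* were too low to be tested. *Il6* was 2.36 to 4.37 CPM in controls and 0.386 to 3.14 CPM in mutants (log2 fold change -1.20, SE 0.65, adjusted p = 0.259 in edgeR's test). *Ctf1*, which encodes cardiotrophin 1, was 4.36 to 13.6 CPM in controls and 17.8 to 21.8 CPM in mutants, higher in mutants without overlap but not past the correction (0.82, SE 0.34, adjusted p = 0.149 in edgeR's test).

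**Figure D5:**
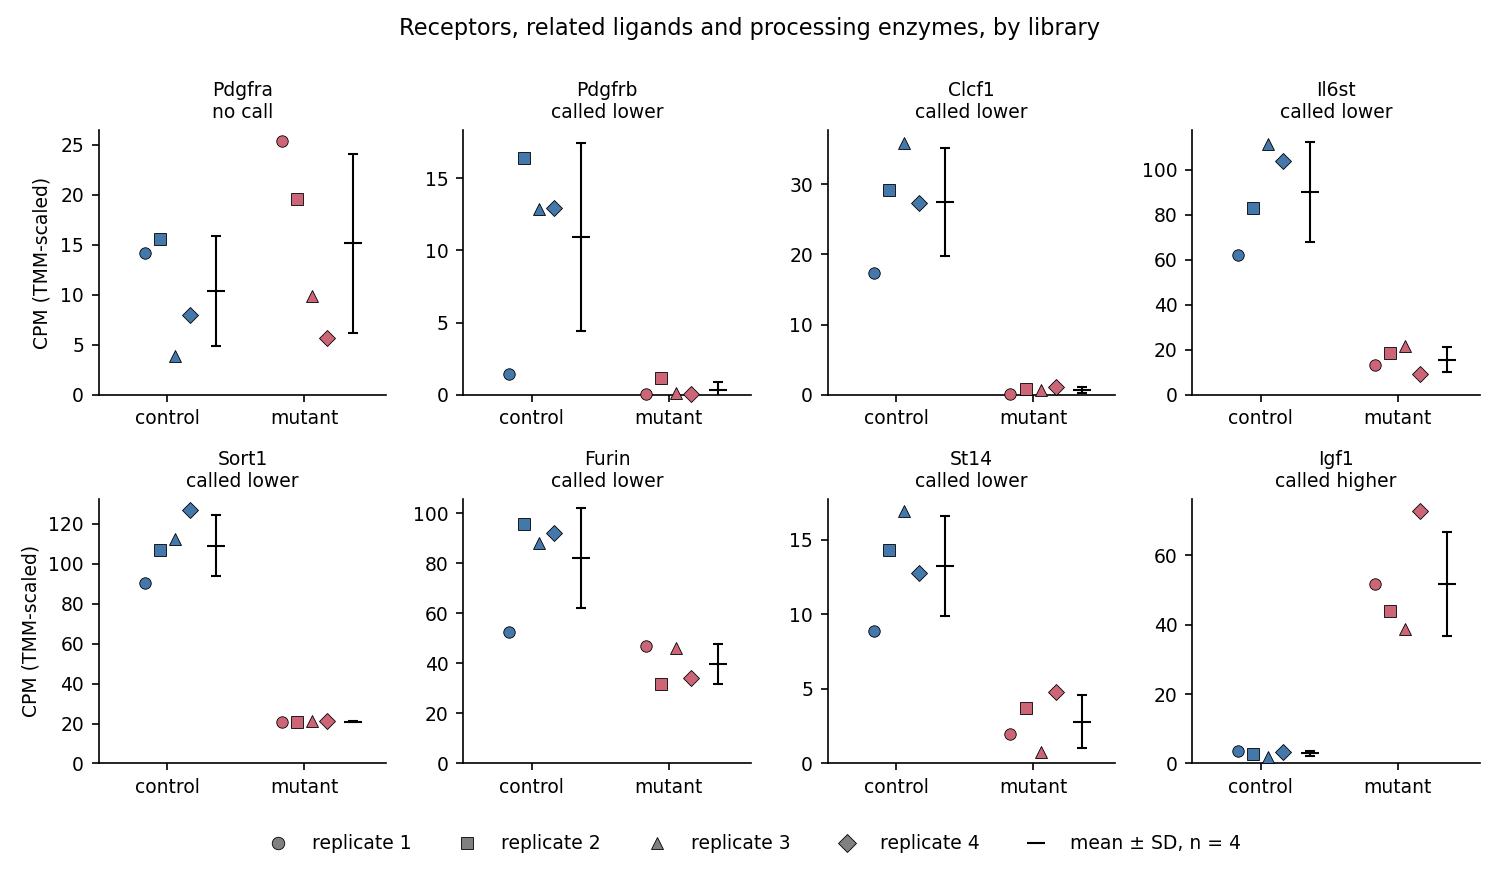
CPM of 8 receptor, related ligand and processing genes in the 4 control and 4 mutant libraries, with 1 symbol for each replicate number and a bar for the mean ± SD (n = 4), cut at 0 where it would fall below. Sort1, Il6st and Clcf1 were lower in every mutant than in every control, and control replicate 1 lay near the mutants for Pdgfrb and Furin.

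Of 18 proteases, sheddases and inhibitors that act on these ligands, 16 were tested. In edgeR's test 0 rose and 2 fell, against 4.36% and 7.97% of all tested genes. At an unadjusted p under 0.05, 3 were higher and 4 lower, and with DESeq2 2 were higher and 4 lower. The median log2 fold change of the 16 was -0.044. *Furin*, whose product cuts the precursors of PDGF and BDNF, was 52.4, 95.7, 88.1 and 92.2 CPM in controls and 46.8, 31.8, 46.2 and 34.4 CPM in mutants (log2 fold change -1.05, SE 0.23, adjusted p = 0.0185 in edgeR's test). Control replicate 1 lay just above the mutants, and 4 of the 8 fits that left out a mouse lost the call, with adjusted p up to 0.0590. *St14*, which encodes the HGF activator matriptase, was 8.91, 14.3, 16.9 and 12.8 CPM in controls and 1.997, 3.71, 0.751 and 4.77 CPM in mutants (-2.23, SE 0.52, adjusted p = 0.0244 in edgeR's test), and 5 of those 8 fits lost the call, with adjusted p up to 0.0691. *Adam17*, the sheddase of TGFα and HB-EGF, was 119.5, 144, 153 and 106 CPM in controls and 105, 47.8, 64.3 and 37.0 CPM in mutants (-1.04, SE 0.31, adjusted p = 0.0578 in edgeR's test) and gave no call, whereas DESeq2 called it lower (adjusted p = 0.0124). DESeq2 also called *Spint1* lower (adjusted p = 0.0177). The 2 higher with DESeq2 were *Spint2* and *Rhbdf2*. *Spint2* was 65.6 to 224 CPM in controls and 237 to 361 CPM in mutants (adjusted p = 0.109 in edgeR's test, 0.0425 with DESeq2). *Rhbdf2* was 10.8 to 17.5 and 15.4 to 30.5 CPM (0.0824 and 0.0314). *Hpn* was higher without overlap, 1.86 to 7.69 against 7.78 to 9.95 CPM, but gave no call (adjusted p = 0.344 in edgeR's test).

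Among 14 growth factor genes of other families, 12 were tested, with a median log2 fold change of 0.48. Of these, 1 rose and 1 fell in edgeR's test, against 4.36% and 7.97% of all tested genes. *Igf1*, insulin-like growth factor 1, was 1.82 to 3.67 CPM in controls and 38.6 to 72.6 CPM in mutants. *Angpt1*, the Tie2 ligand angiopoietin 1, had 146 counts over the controls and 1 over the mutants (0.475 to 2.01 CPM against 0.0276 CPM at most, adjusted p = 0.00487 in edgeR's test).

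For each of the 5 called ligands, the genes with the most similar pattern over the 8 libraries were found among 12289 genes with a mean of at least 5 CPM, as the root mean square difference of centred log2 CPM. Nearest to *Pdgfb* were *E2f4* (0.064), *Calm2* (0.087) and *Dgat1* (0.094), and nearest to *Tgfa* were *Sipa1l2* (0.14), *Slc12a9* (0.18) and *Cyfip1* (0.20). *Hbegf* was nearest to *Cited2* (0.24), *Sema6d* (0.24) and *P2rx4* (0.26). For *Hgf*, the nearest were *Gm6377* (0.42), *Tmem106a* (0.43) and *Galnt6* (0.44), and for *Pdgfc* they were *Cd22* (0.43), *Rnd3* (0.48) and *Sdc3* (0.53), less close than for the other 3. No gene was among the nearest 3 of more than 1 ligand. The distance includes the difference between groups, so ligands unlike in fold change could hardly share a nearest gene.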

How the data were processed

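Sorted microglia of 4 mutant and 4 control mice were measured by RNA-seq. Per the Methods, alignment was to mm10 by Rsubread and gene counting by featureCounts, and the matrix the authors deposited holds raw counts for 55573 Ensembl genes. Versions, annotation and strand setting are not given in the sources used here. The Methods describe polyA-selected NEBNext libraries read from both ends, the labels Nextera XT libraries read from 1 end, and both call them unstranded. The Methods also name another deposit for the *Smad2/3* mutants, so the match to this experiment rests on genotype, age and cell type. A second deposited table holds only the authors' DESeq2 comparison (1.28 per the labels: fold changes, p-values) and was not used.

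The 20153 genes that reached 10 counts in 4 or more libraries were tested in R 4.3.3 with edgeR 4.0.16 (quasi-likelihood test with TMM scaling and no block), Benjamini-Hochberg adjustment was over all of them, and an adjusted p under 0.05 made a call. The standard error is the log2 fold change divided by the square root of F. CPM are TMM-scaled, log2 CPM used a prior count of 2, and RPKM divide CPM by the merged exon length of GENCODE M21 (GRCm38, the assembly of mm10). Depth was 37649124 to 40932680 counts in controls and 35639502 to 41946479 in mutants, with a biological coefficient of variation of 0.542, and the spread between mice set the precision. Replicate libraries exceeded sampling noise in their differences (chi-square per gene of 107 or more). Alternatives were DESeq2 1.42.0, RLE factors, library totals, each mouse left out, a block by replicate number, no low-count filter, and a filter of 10 counts in every library. Autosomal and mitochondrial genes only, and leaving out replicate 1 or replicate 3 of both groups, were added after seeing the data. The fitting code was tested on simulated data. Tables were made with pandas 2.3.3 under Python 3.11.15, and plots with matplotlib 3.10.9.

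Named genes were all 10 ligands, every called gene of the lists of other ligands, receptors, processing genes and other growth factors with a mean of at least 1 CPM in a group, receptors of the called ligands, the 3 genes nearest in pattern to each called ligand, and *Smad2*, *Smad3* and sex-linked genes as checks. *Fos*, *Ier3*, *Egr1*, *Hspa1a*, *Hspa1b*, *Slc2a1*, *Hif1a*, *Car9*, *Ldha*, *Kcnj8*, *Rgs5*, *Vtn*, *Pdgfd*, *Pgf*, *Nrp1*, *Il6*, *Ctf1*, *Lif*, *Il11*, *Cntf*, *Adam17*, *Spint1*, *Spint2*, *Rhbdf2*, *Hpn*, *Osmr*, *Lifr* and *Angpt1* were named after their values were seen. The ligands and lists were chosen with earlier results of these data known.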

Additional observations from a re-analysis of the deposited data

Results flagged for a closer look

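In 42 groups of 4 libraries (10 ligands and 11 named partner genes in both groups), 4 held a library whose gap to the nearest other library, as a share of the range of its group, exceeded Dixon's 95% critical value, and about 1 in 20 such groups is flagged by chance. *Pdgfa* was 39.1 CPM in control replicate 4, against 23.4 to 25.4 CPM in the other controls. *Hbegf* was 55.8 CPM in mutant replicate 3, where the other mutants had 26.8 to 29.7 CPM, and its call was kept without that mouse. *Bdnf* was 1.06 CPM in control replicate 1, against 0 to 0.0838 CPM in the others. *Pdgfrb* was 1.19 CPM in mutant replicate 2, against 0.0276 to 0.111 CPM in the other mutants.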

How the results depend on the processing

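Over the 17 alternatives, the 9 tested ligands gave 153 fits, of which none turned its sign and 147 kept both direction and side of the threshold. Calls of *Pdgfc* and *Hbegf* were lost in 5 fits given with those genes, and *Vegfa* gained one with DESeq2. The number of ligands called higher was between 2 and 4, and 2 were called lower throughout. With DESeq2, which called 4751 of 22931 genes against 2485 of 20153 with edgeR, 1 other ligand, 1 receptor and 2 processing genes were called higher and 4 processing genes lower. With at least 10 counts in all 8 libraries, 1 other ligand was called higher, and 0 other ligands and 0 other growth factors lower. With each mouse left out, other ligands called higher ranged from 0 to 1 and lower from 1 to 2, processing genes higher from 0 to 1 and lower from 0 to 2, and other growth factors higher from 1 to 2. Without replicate 3 of both groups 0 processing genes were called lower. The log2 fold change of *Met*, with no call, ranged from -0.24 to 1.27 with each mouse left out, negative without mutant replicate 3. That of *Erbb4*, also with no call, ranged from -0.75 to 0.31, positive without control replicate 1 or 2 or mutant replicate 3 or 4, and was 0.026 with library totals. The cause was not tested.

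Both groups carry replicate numbers 1 to 4 in the labels, with no stated pairing. Deviations of same-numbered libraries from their group means correlated across genes at 0.166, 0.0183, 0.144 and 0.114, and control replicate 2 correlated best with mutant replicate 1. Of these 4 pairs, 3 were over 0.1 and that of replicate 2 was not, so the design does not show that the numbers pair the mice, and the data leave it unsettled. A fit with a replicate block called 2383 genes, 2001 of them shared with the fit without it, and 3 ligands were called higher and 2 lower. There the SE of the log2 fold change was 0.26 for *Pdgfc* (3.03, adjusted p = 0.00274 in edgeR's test) and 0.16 for *Hbegf* (1.43, adjusted p = 0.00539). *Furin*, at -1.03, was no longer past the threshold (adjusted p = 0.0576).

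Per kilobase of the longest transcript, *Pdgfb* (43.1 RPKM) passed *Vegfb* (40.7 RPKM) in controls, and 13 of the 20 levels moved by more than their SD. Library totals moved the median log2 fold change of all genes from 0.011 to 0.13.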
